A study of Mus musculus with 6 samples.

Results

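The 10 genes described here encode the forkhead factors Foxo1, Foxo3 and Foxo4, the sestrins Sesn1 and Sesn3, and 5 genes known as FoxO targets or as parts of the same growth factor pathway, Txnip, Ccng2, Irs2, Pik3ip1 and Glul. They were taken by symbol from a table of 47455 gene symbols, and all 10 were found and passed the filter on low counts. The genes were chosen with the difference between wounded and non-wounded libraries already known. Their own differences are therefore given as a description, with no test. The animals were 3 mice of the C57BL/6 strain, 6 to 8 weeks old, from which whole epidermis was taken, and the labels name no genotype or treatment besides wounding. Each mouse gave 1 library from non-wounded tissue and 1 from back skin that had received 8 punch wounds of 3 mm each 2 h earlier, so that each group had 3 mice. The epidermis was freed from the dermis in trypsin, and the time and body site of the non-wounded collection are not given in the labels.

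FoxO proteins are transcription factors that are switched off by growth factor signalling. Insulin and related ligands activate PI3K and then the kinase AKT, which phosphorylates FoxO proteins and keeps them out of the nucleus. When that signal is low, FoxO proteins bind DNA and raise genes of cell cycle exit, stress resistance and nutrient saving. Sestrins are stress-induced proteins that restrain the growth kinase complex mTORC1, Txnip is an arrestin-like protein that binds thioredoxin and limits glucose uptake, and Glul makes glutamine from glutamate and ammonia. FoxO activity is set largely by where the protein lies in the cell, which transcript levels do not measure.

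The promoter windows of the genes with the lowest wounded to non-wounded ratios are shown first, with the FoxO elements and E-boxes found in them. Each RefSeq window (GRCm38.p6) has 300 bases, 250 before and 50 after the annotated start, and is given 5′ to 3′ on the strand of the gene. Capitals mark matches to the motifs searched on both strands.
Txnip, chr3:96557707-96558006, plus strand: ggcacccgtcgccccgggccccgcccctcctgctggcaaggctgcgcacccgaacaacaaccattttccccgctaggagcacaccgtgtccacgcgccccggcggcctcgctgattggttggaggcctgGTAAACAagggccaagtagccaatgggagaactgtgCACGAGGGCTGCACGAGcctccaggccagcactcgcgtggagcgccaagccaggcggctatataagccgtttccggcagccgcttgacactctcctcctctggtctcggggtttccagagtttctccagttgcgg
Sesn1, upstream start, chr10:41810324-41810623, plus strand: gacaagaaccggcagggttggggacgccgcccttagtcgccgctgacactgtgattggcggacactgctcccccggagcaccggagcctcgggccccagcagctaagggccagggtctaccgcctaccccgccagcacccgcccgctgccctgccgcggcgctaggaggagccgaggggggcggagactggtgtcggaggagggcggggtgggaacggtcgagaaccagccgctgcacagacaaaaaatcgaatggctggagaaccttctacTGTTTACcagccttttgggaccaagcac
Sesn1, downstream start, chr10:41887189-41887488, plus strand: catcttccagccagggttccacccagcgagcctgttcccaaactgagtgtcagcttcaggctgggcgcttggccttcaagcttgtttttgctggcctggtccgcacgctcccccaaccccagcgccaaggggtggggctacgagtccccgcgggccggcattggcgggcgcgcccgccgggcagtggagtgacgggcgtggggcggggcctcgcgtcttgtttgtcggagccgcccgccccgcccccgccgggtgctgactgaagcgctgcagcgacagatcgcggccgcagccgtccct
Pik3ip1, chr11:3330481-3330780, plus strand: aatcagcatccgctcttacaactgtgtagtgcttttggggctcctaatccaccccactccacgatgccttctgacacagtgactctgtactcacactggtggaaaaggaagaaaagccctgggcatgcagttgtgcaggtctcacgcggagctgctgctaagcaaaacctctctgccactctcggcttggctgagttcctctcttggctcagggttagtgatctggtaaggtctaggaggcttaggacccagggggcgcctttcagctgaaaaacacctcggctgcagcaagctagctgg
Glul, chr1:153899679-153899978, plus strand: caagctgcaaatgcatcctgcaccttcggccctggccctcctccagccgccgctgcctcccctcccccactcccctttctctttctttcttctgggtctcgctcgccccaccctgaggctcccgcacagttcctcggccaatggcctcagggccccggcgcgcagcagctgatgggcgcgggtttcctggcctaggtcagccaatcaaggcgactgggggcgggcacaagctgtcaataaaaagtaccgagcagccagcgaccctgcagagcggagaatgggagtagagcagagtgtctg
The FoxO element GTAAACA begins 121 bases before the Txnip start. It is also found, on the reverse strand as TGTTTAC, 22 bases after the upstream Sesn1 start. It was present in 3.65% of all 32851 windows of the table, and in 2 of the 10 windows of these genes, which cover 9 of the 10 genes. No window was matched for Foxo4. The Txnip window also holds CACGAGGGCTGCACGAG, a pair of imperfect E-boxes of the kind that MondoA and Mlx bind, beginning 85 bases before the start. Its pattern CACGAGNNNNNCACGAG was chosen after the window had been read, and 1 of the 32851 windows, that of Txnip, holds it.

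The insulin response type element CAAAACA was found in the Ccng2 and Irs2 windows, and in 6.28% of all windows. Both stretches are shown because the CPM ranges of these genes, unlike those of the first 4, overlapped between groups.
Ccng2, chr5:93267542-93267578, plus strand: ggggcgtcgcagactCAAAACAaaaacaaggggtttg
Irs2, chr8:11008945-11008981, minus strand: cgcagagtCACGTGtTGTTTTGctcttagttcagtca
The E-box CACGTG lies just before the Irs2 element, 44 bases before the start, and was present in 7.15% of all windows. The cAMP response element TGACGTCA was present in 1.79% of windows and in 0 of the 10. The windows of Foxo1, Foxo3, Sesn3, Pik3ip1 and Glul and the downstream window of Sesn1 held none of these motifs.

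The 6 libraries held 20746185 to 26814845 counts after rounding, and the lowest count of any of the 10 genes was 72. Keratinocyte markers dominated all libraries, with 40400 to 48000 summed CPM (counts scaled to library size times edgeR's TMM factor) in non-wounded and 41600 to 47200 in wounded ones. Summed markers of fibroblasts (30.7 to 55.1 against 67 to 101 CPM), skeletal muscle (4.04 to 4.52 against 11.9 to 15.6 CPM), adipocytes (1.36 to 3.82 against 6.18 to 11.4 CPM), neutrophils (2.24 to 4.76 against 9.97 to 14.4 CPM) and red blood cells (18.9 to 26.1 against 97.3 to 165 CPM) were higher in the wounded libraries, with 9 of 10, 10 of 10, 7 of 8, 7 of 11 and 5 of 5 genes higher. Lep of adipocytes and Ly6g of neutrophils had 0 counts in all libraries. Langerhans cell markers (1600 to 1720 against 2450 to 2890 CPM, 7 of 8 genes higher) and sebaceous and hair follicle markers (3120 to 3710 against 4220 to 4940 CPM, 7 of 10) were also higher in sum. Sums were lower in wounded libraries for dendritic epidermal T cells (204 to 241 against 159 to 182 CPM, 2 of 10 genes higher), for macrophages and monocytes (92.9 to 106 against 48.8 to 70.3 CPM, 5 of 8) and for smooth muscle and pericytes (9.98 to 26.1 against 5.39 to 9.04 CPM, 5 of 7). The macrophage and monocyte sum fell mainly through Csf1r (mean 66.7 to 29 CPM) and Adgre1 (24.2 to 13.4 CPM). The smooth muscle and pericyte sum fell mainly through Acta2 (11.2 to 1.17 CPM). Most genes of either list were higher. Endothelial sums overlapped (4.19 to 6.22 against 4.12 to 5.11 CPM), although 6 of 7 genes were higher and Vwf alone was lower. Sums of melanocyte markers were 15.5 to 21.2 against 21.2 to 22.2 CPM, with 5 of 6 genes higher. The part of these cells in the differences below was not tested, and in whole tissue fewer cells of a type and less RNA per cell cannot be told apart. Across the transcriptome, 48.4% of 16079 genes tested were called at an adjusted p under 0.05 by edgeR, 24% as higher and 24.4% as lower in wounded epidermis.

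Of the 10 genes, 6 were past that threshold as lower and 1, Foxo1, as higher. For the same 7 genes the wounded and non-wounded CPM ranges were apart, as they were for 58.5% of all genes tested (29.7% with the wounded range below). Since the genes were chosen on this contrast, nothing is read from these counts. The median log2 fold change, wounded over non-wounded, was -0.44 over the 10 genes and -0.03 over all genes tested. The genes fell into a set with large differences (Sesn1, Glul, Txnip and Pik3ip1), at least 3-fold lower, and the other 6, whose log2 fold changes lay between -0.54 and 0.52. In CPM the 3 mice differed in the same direction for 9 genes, the exception being Irs2. In TPM, Irs2 was lower in the wounded library of each mouse, Foxo1 was lower in mouse 1 and higher in mice 2 and 3, and Ccng2 was level in mouse 1 and lower in the others.

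**Figure D1:**
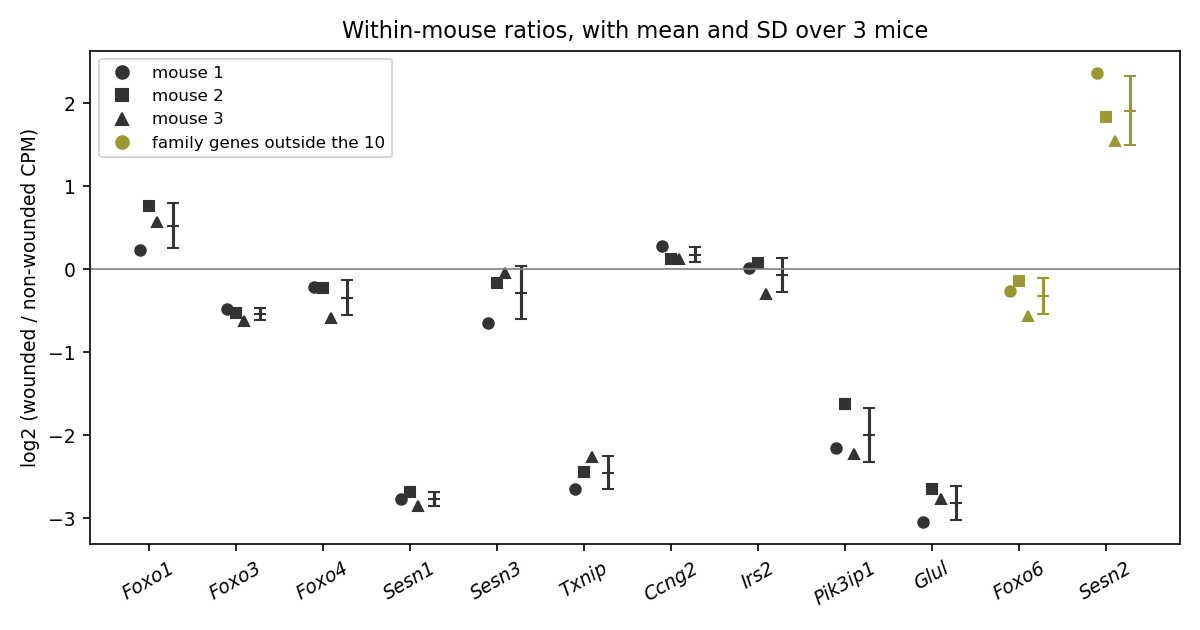
Log2 ratio of wounded to non-wounded CPM within each mouse (vertical axis) for the 10 genes and for Foxo6 and Sesn2, the remaining members of both families. Symbols are mice and bars are the mean and SD over 3 mice; Sesn1, Txnip, Pik3ip1 and Glul lie between -3.04 and -1.62 in every mouse, and Sesn2 lies at 1.54 or above.

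Foxo3 and Foxo4 transcripts were lower and Foxo1 transcripts higher in the wounded libraries. Foxo3 (ENSMUSG00000048756.11, minus strand of chromosome 10, 42181841 to 42276755 in GRCm38) stood at 126.6, 126.1 and 128.3 CPM in non-wounded epidermis of mice 1, 2 and 3 and at 90.5, 87.9 and 83.3 CPM in wounded epidermis. The groups did not overlap, and the fitted log2 fold change was -0.54 (SE 0.08). Foxo4 (ENSMUSG00000042903.8, plus strand of chromosome X, 101254528 to 101260873) had 46.6, 48.6 and 50.9 CPM against 40.2, 41.5 and 34.0 CPM. All wounded values of Foxo4 lay below all non-wounded ones, by a log2 fold change of -0.34 (SE 0.11), and mouse 3 showed the widest gap. With library totals alone the log2 fold change was -0.66 for Foxo4 and -0.87 for Foxo3, and on log2(TPM + 1) it was -0.77 and -0.74.

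Foxo1 (ENSMUSG00000044167.6, plus strand of chromosome 3, 52268336 to 52353221), the FoxO gene best known for control of glucose metabolism, had 75.4, 63.1 and 66.8 CPM in non-wounded and 88.7, 107.5 and 99.2 CPM in wounded libraries. Every wounded library was above every non-wounded one on this scale, with a log2 fold change of 0.52 (SE 0.11). On the deposited TPM scale the groups overlapped, at 11.7, 9.48 and 10.3 TPM against 10.6, 12.7 and 12.3 TPM, and the difference was 0.16 on log2(TPM + 1) and 0.20 with library totals in place of TMM. Foxo6, the remaining FoxO gene and outside the 10, had 6.29 ± 0.60 CPM in non-wounded and 5.08 ± 1.04 CPM in wounded libraries (SD, n = 3; log2 fold change -0.30, SE 0.22, adjusted p = 0.269 by edgeR). It passed with library totals alone (log2 -0.63, adjusted p = 0.0295 by edgeR) and on log2(TPM + 1) (log2 -0.49, adjusted p = 0.0466 by limma), with adjusted p from 0.0295 to 0.586 over all alternatives.

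In TPM, which allows genes to be compared per length, the 4 FoxO genes summed to 65.9 ± 3.26 in non-wounded and 44.1 ± 2.09 in wounded epidermis. Foxo3 and Foxo4 held most of this sum in both groups. TPM carries no TMM factor here, and log2 fold changes on log2(TPM + 1) lay below those under TMM (median shift -0.29). In CPM, Foxo1 was higher while Foxo3 and Foxo4 were lower, so the size of the difference in the sum depends on the scale. The Foxo1 share was 15.9 ± 1.5% in non-wounded and 27 ± 2.69% in wounded libraries, and the Foxo3 share was 41.1 ± 0.778% against 35.9 ± 1.42%. Foxo4 made up 37.8 ± 2.6% and 32.3 ± 2.05%, and Foxo6 5.14 ± 0.59% and 4.84 ± 0.743%. The Foxo1 shares of the groups did not overlap (15 to 17.7% against 24.1 to 29.4%). Neither did those of Foxo3 (40.3 to 41.8% against 34.2 to 36.8%) and Foxo4 (34.8 to 39.3% against 29.9 to 33.7%), whereas those of Foxo6 did.

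Among the sestrins, Sesn1 transcripts were lower and Sesn2 transcripts higher in wounded epidermis. Sesn1 (ENSMUSG00000038332.13, plus strand of chromosome 10, 41809935 to 41908424), a sestrin also known as a p53 target, had 226.9, 193.5 and 220.0 CPM in the non-wounded and 33.4, 30.1 and 30.5 CPM in the wounded libraries of mice 1, 2 and 3. It was 6.81-fold lower, with within-mouse log2 ratios of -2.76, -2.68 and -2.85 and a fitted value of -2.77 (SE 0.10). Replicates lay close together in both groups, with a coefficient of variation of 8.26% in non-wounded and 5.63% in wounded libraries. Sesn3 (ENSMUSG00000032009.8, plus strand of chromosome 9, 14275067 to 14333101), a sestrin known as a FoxO target, had 21.8, 19.0 and 13.5 CPM against 13.9, 16.9 and 13.1 CPM. The Sesn3 groups overlapped, mouse 1 had the widest gap and mouse 3 almost none.

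Sesn2, the sestrin known to be induced by ATF4 and by oxidative stress and outside the 10, rose from 25.9, 33.9 and 46.5 CPM to 133.3, 120.7 and 135.3 CPM (log2 fold change 1.87, SE 0.18, adjusted p = 2.37e-05 by edgeR), in 3 of 3 mice. In TPM, which carries no TMM factor here, the 3 sestrins summed to 134 ± 12.2 in non-wounded and 56.7 ± 3.92 in wounded epidermis. Sesn1 made up 85.5 ± 2.33% of that sum in non-wounded libraries and 21.5 ± 1.33% in wounded ones. The Sesn2 share was 10.5 ± 2.85% against 71.4 ± 1.38%, and the Sesn3 share 3.98 ± 0.847% against 7.07 ± 1.01%. Per length, Sesn1 was the most abundant sestrin transcript in the 3 non-wounded libraries and Sesn2 in the 3 wounded ones.

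**Figure D2:**
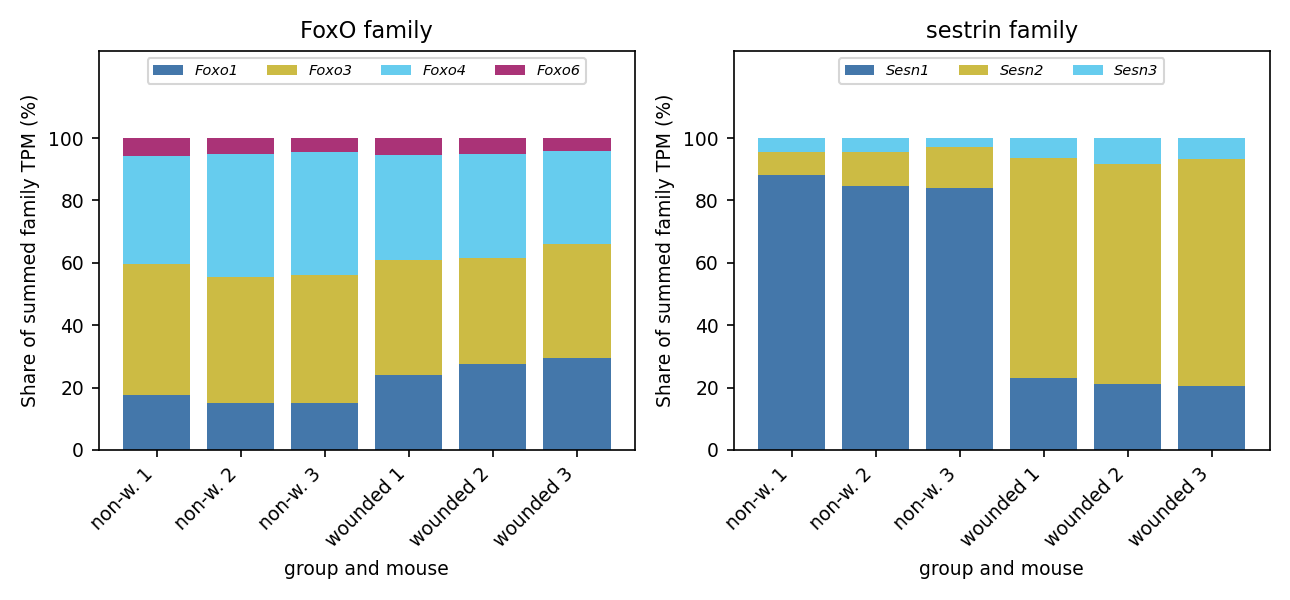
Share of the summed TPM of the FoxO genes (left) and of the sestrin genes (right) held by each gene, in percent, for each library (bars, by group and mouse). The Sesn1 part shrinks from 85.5% to 21.5% on average and the Sesn2 part grows from 10.5% to 71.4%, while the FoxO shares move less.

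Txnip was the most abundant of the 10 genes in both groups. Txnip (ENSMUSG00000038393.14, plus strand of chromosome 3, 96557957 to 96561883) had 2222, 2068 and 1931 CPM in the non-wounded and 353.7, 380.1 and 403.9 CPM in the wounded libraries. All wounded values lay far below the non-wounded ones, and the difference was 5.47-fold, with within-mouse log2 ratios of -2.65, -2.44 and -2.26. By mean TPM it ranked 87 among all gene symbols in non-wounded and 499 in wounded epidermis. Its antisense neighbour Gm15441 overlaps it but had a mean of 7.7 counts against 30660.3 for Txnip.

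The other arrestin relatives of Txnip were called in both directions. Arrdc3, an arrestin linked to receptor trafficking, fell from 595 ± 14.8 to 196 ± 14 CPM (log2 -1.61, SE 0.09, adjusted p = 1.37e-06 by edgeR). Arrdc1 fell from 49.2 ± 2.64 to 30.2 ± 1.38 CPM (log2 -0.70, SE 0.10), and Arrdc2 by 0.64 on the log2 scale (SE 0.17). Arrdc4, a close relative of Txnip and like it a MondoA target, rose from 61.5 ± 6.77 to 142 ± 7.09 CPM (log2 1.20, SE 0.10, adjusted p = 1.24e-05 by edgeR). In TPM, Txnip made up 81.5 ± 1.72% of the summed level of these 5 genes in non-wounded and 60.2 ± 0.671% in wounded libraries, and the Arrdc4 share was 1.53 ± 0.304% against 14.8 ± 0.459%. Mlxip, which encodes MondoA, rose by log2 0.58 (SE 0.09) and the gene of its partner Mlx fell by 0.51 on the log2 scale (SE 0.15).

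Of the thioredoxin system that Txnip binds, the cytosolic thioredoxin gene Txn1 and its reductase gene Txnrd1 rose, by log2 0.51 (SE 0.10) and 1.25 (SE 0.09). Txnrd1 went from 103 ± 5.53 to 244 ± 17.9 CPM (adjusted p = 5e-06 by edgeR). The mitochondrial genes Txn2 and Txnrd2 did not pass (log2 0.06, SE 0.09, and log2 -0.39, SE 0.24). Of the 22 listed partners and relatives of Txnip, 21 were tested, 9 rose and 6 fell (6 and 10 with library totals alone). Their median log2 fold change was 0.25 against -0.03 over all genes tested. Of all 16079 genes tested, 24% were called higher and 24.4% lower under TMM, and 2168 and 6655 genes with library totals alone. The list counts below stand against the same numbers.

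Pik3ip1 and Irs2 act on opposite sides of PI3K. Pik3ip1 (ENSMUSG00000034614.14, plus strand of chromosome 11, 3330401 to 3342971) encodes a membrane protein that inhibits the PI3K catalytic subunit. It had 25.6, 18.5 and 18.5 CPM in the non-wounded and 5.71, 5.97 and 3.88 CPM in the wounded libraries, a 4.02-fold lower mean with no overlap between groups. Mouse 2 showed the smallest gap, with a log2 ratio of -1.62 against -2.15 and -2.23 in mice 1 and 3. The fitted log2 fold change of Pik3ip1 was -2.00 (SE 0.21).

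Irs2 (ENSMUSG00000038894.7, minus strand of chromosome 8, 10984681 to 11008458), an adaptor that links the insulin receptor to PI3K, had 221.6, 222.1 and 304.0 CPM in the non-wounded and 224.7, 233.9 and 246.7 CPM in the wounded libraries. These ranges overlapped, and the high non-wounded value of mouse 3 set the sign of the mean difference. The fitted log2 fold change was -0.08 (SE 0.13), 0.08 without that library and -0.41 with library totals alone. In TPM the Irs2 groups did not overlap, at 47.6, 46.1 and 64.9 against 37.2, 38.2 and 42.4. The paralog Irs1, which was tested as part of the PI3K list, fell from 22 ± 5.46 to 6.82 ± 0.454 CPM (log2 -1.69, SE 0.19, adjusted p = 7e-05 by edgeR).

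Ccng2 (ENSMUSG00000029385.14, plus strand of chromosome 5, 93267257 to 93276231), an unconventional cyclin linked to cell cycle arrest, had 46.3, 40.6 and 39.5 CPM against 56.2, 44.1 and 43.0 CPM. The groups overlapped, each mouse had a slightly higher wounded value, and the log2 fold change of 0.18 (SE 0.13) turned to -0.14 with library totals alone and to -0.19 on log2(TPM + 1). Its relative Ccng1, tested among the FoxO targets, did not pass (log2 -0.22).

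Glul and Sesn1 had the largest differences of the 10 genes, and their order depended on the scale. Glul (ENSMUSG00000026473.15, plus strand of chromosome 1, 153899944 to 153909723) had 308.7, 285.4 and 297.6 CPM in the non-wounded and 37.5, 45.7 and 43.8 CPM in the wounded libraries. It was 7.02-fold lower, with within-mouse log2 ratios of -3.04, -2.64 and -2.76 and a fitted value of -2.81 (SE 0.10), within 1 SE of that of Sesn1. In mean TPM, Glul was 7.67-fold and Sesn1 9.41-fold lower. The protein-coding gene Teddm2 overlaps Glul on the opposite strand, with a mean of 28.2 counts against 4262.2 for Glul. By mean TPM, Glul ranked 515 among all symbols in non-wounded and 3594 in wounded epidermis.

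Of 28 listed genes of glutamine metabolism and transport, 26 were tested, 10 rose and 6 fell, against 8 in each direction with library totals alone, and the median log2 fold change was 0.30. The amino acid transporter gene Slc38a2 rose from 427 ± 103 to 1270 ± 78.8 CPM (log2 1.57, SE 0.16, adjusted p = 3.48e-05 by edgeR). So did Slc3a2, the heavy chain of amino acid exchangers, from 111 ± 5.98 to 195 ± 15.1 CPM (log2 0.82, SE 0.09). Gfpt1, which uses glutamine to start hexosamine synthesis, rose from 19.5 ± 3.07 to 48.6 ± 4.62 CPM (log2 1.32, SE 0.14). The asparagine synthetase gene Asns went from 26 ± 1.27 to 48.5 ± 6.34 CPM (log2 0.90, SE 0.12).

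**Figure D3:**
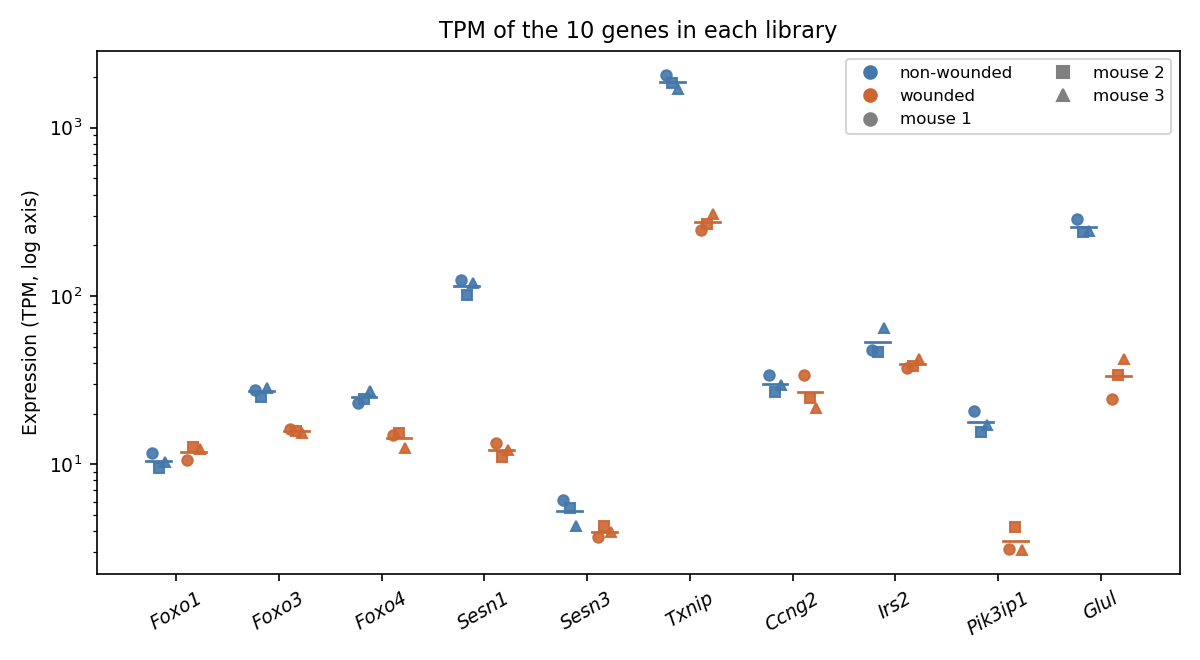
Expression of the 10 genes in TPM (vertical log axis) in each library, coloured by group, with a symbol for each mouse and a line at each group mean. Txnip is the highest in both groups (means 1869 and 273 TPM), and Sesn1, Glul, Txnip and Pik3ip1 show clearly separate groups.

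Set per length, the order of the genes differed between groups. In non-wounded epidermis the mean TPM went from Txnip (1869 ± 187) through Glul (256 ± 25.8), Sesn1 (115 ± 11.8) and Irs2 (52.9 ± 10.4) to Ccng2 (30.1 ± 3.41), Foxo3 (27.1 ± 1.72), Foxo4 (24.9 ± 2.00), Pik3ip1 (17.8 ± 2.66), Foxo1 (10.5 ± 1.14) and Sesn3 (5.28 ± 0.939). The ranges of Ccng2 and Foxo3 overlapped, as did those of Foxo3 and Foxo4, and the other neighbours were apart. In wounded epidermis Txnip (273 ± 29.8) was followed by Irs2 (39.2 ± 2.77), Glul (33.4 ± 8.89), Ccng2 (26.7 ± 6.27), Foxo3 (15.8 ± 0.403), Foxo4 (14.3 ± 1.48), Sesn1 (12.2 ± 1.17), Foxo1 (11.9 ± 1.12), Sesn3 (3.98 ± 0.295) and Pik3ip1 (3.49 ± 0.65). There the ranges of Irs2 and Glul, Glul and Ccng2, Foxo4 and Sesn1, Sesn1 and Foxo1, and Sesn3 and Pik3ip1 overlapped. Sesn1 was above Foxo3 in every non-wounded library and below it in every wounded one.

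For each of the 10 genes, the gene outside them whose profile over the 6 libraries lay nearest was found. It was sought among 8444 genes whose mean reached 10 CPM, by the root mean square distance of centred log2 CPM. The profile spans both groups, so for genes with large differences the distance mostly reflects that difference, on which the 10 were chosen. Shared regulation was not tested. Tsc22d3, which encodes the glucocorticoid-induced leucine zipper, was nearest both to Sesn1 (distance 0.163) and to Glul (0.188), and stood at 516 ± 114 CPM in non-wounded and 76.6 ± 1.63 CPM in wounded epidermis. The zinc finger gene Zfp282 was nearest to Txnip (0.144) and the noradrenaline transporter gene Slc6a2 to Pik3ip1 (0.0838). The nearest to the others were Stk11, the gene of the kinase LKB1, to Foxo1, Trappc11 to Foxo3, Tap2 to Foxo4, Mrps24 to Sesn3, Actn1 to Ccng2 and Col4a6 to Irs2, at distances of 0.0237 to 0.0479.

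Genes known as FoxO targets moved in both directions. The list does not separate genes that FoxO raises from genes that it lowers, so these directions are no reading of FoxO activity. Of 46 other targets, 40 were tested, 11 rose and 14 fell (8 and 23 with library totals alone), with a median log2 fold change of -0.03, the same as over all genes tested. Among those that fell, Tsc22d3 had a log2 fold change of -2.75 (SE 0.15, adjusted p = 1.13e-06 by edgeR), and the muscle atrophy ubiquitin ligase gene Fbxo32 went from 54.9 ± 5.76 to 23.7 ± 3.06 CPM (log2 -1.21, SE 0.13). The cell cycle inhibitor gene Cdkn1b fell by 0.79 on the log2 scale (SE 0.09), and the mitophagy gene Bnip3 by 1.22 (SE 0.16). Among those that rose, the autophagy gene Gabarapl1 went from 58.2 ± 2.49 to 139 ± 6.64 CPM (log2 1.25, SE 0.09, adjusted p = 3.77e-06 by edgeR), besides Sesn2, and the pro-apoptotic gene Bcl2l11 rose by log2 1.73 (SE 0.22).

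Upstream of FoxO, 27 of 28 PI3K and AKT pathway genes were tested, 9 rose and 8 fell (6 and 14 with library totals alone; median log2 -0.10). The regulatory subunit gene Pik3r1 fell from 164 ± 6.82 to 47 ± 7.19 CPM (log2 -1.81, SE 0.12, adjusted p = 2.67e-06 by edgeR). The kinase genes Akt1 and Akt2 rose by log2 0.48 (SE 0.10) and 0.61 (SE 0.08). The pseudokinase gene Trib1 rose from 102 ± 29.9 to 350 ± 24.8 CPM (log2 1.78, SE 0.18). Its relative Trib2, which also stands in the list of FoxO targets, fell from 6.77 ± 0.151 to 1.82 ± 0.211 CPM (log2 -1.89, SE 0.22).

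Of 28 listed regulators of FoxO proteins, all tested, 15 rose and 3 fell under TMM scaling, whereas the counts were 7 and 10 with library totals alone. Their median log2 fold change was 0.30. Over all 16079 genes tested, 3859 were called higher and 3917 lower under TMM, against 2168 and 6655 with library totals alone. The deacetylase gene Sirt1 rose from 48.3 ± 3.74 to 228 ± 61 CPM (log2 2.24, SE 0.17, adjusted p = 5.92e-06 by edgeR), and Sfn, the stratifin gene of keratinocytes, from 1410 ± 100 to 4360 ± 241 CPM (log2 1.63, SE 0.10). Ywhag, of the same family of phosphoprotein binders, rose by log2 0.88 (SE 0.09), and the ubiquitin ligase gene Mdm2 by 1.59 (SE 0.14).

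Around the sestrins, 45 of 46 genes of mTORC1 control were tested, 11 rose and 13 fell (6 and 32 with library totals alone; median log2 -0.05). The autophagy receptor gene Sqstm1 rose from 174 ± 2.61 to 891 ± 63.2 CPM (log2 2.36, SE 0.09, adjusted p = 4.32e-07 by edgeR), and the folliculin partner genes Fnip1 and Fnip2 by log2 1.36 (SE 0.12) and 1.62 (SE 0.12). Ddit4, which encodes the mTORC1 inhibitor REDD1, fell from 89.9 ± 20.1 to 36.2 ± 4.97 CPM (log2 -1.31, SE 0.16). Mtor stood at 49.3 ± 0.83 in non-wounded and 50.1 ± 1.21 CPM in wounded libraries and did not pass (log2 0.02, SE 0.09, adjusted p = 0.861 by edgeR).

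**Figure D4:**
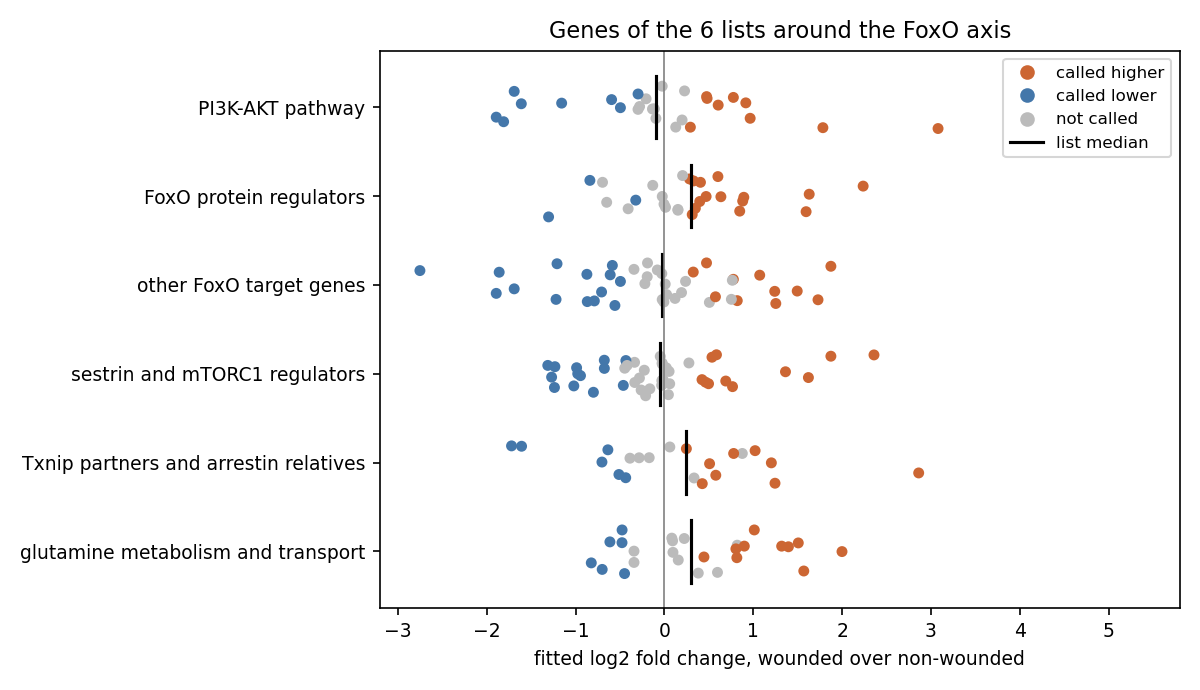
Fitted log2 fold change, wounded over non-wounded (horizontal axis), of each tested gene of the 6 lists, coloured by the edgeR call, with a black line at each list median. Every list holds genes called in both directions, and the medians lie between -0.10 and 0.30. Points are spread vertically at random within a list. The FoxO target list also shows a point at 0.01 for G6pc, which had 0 counts in all libraries and was not tested. That point is no measurement of G6pc.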

How the data were processed

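RNA was measured by poly-dT capture sequencing in 6 libraries, grouped by their labels. The tables deposited by the authors hold estimated counts and TPM by gene symbol, both made with Salmon on mm10, per the deposited methods sheet, which also names edgeR for comparisons; no source used here gives versions or strand use. Of the deposited estimated counts, 30.6% to 32.3% per library were not whole, and all were rounded. The counts were filtered (filterByExpr, 16079 genes kept), given TMM factors and compared between groups in edgeR 4.0.16 (R 4.3.3) by its quasi-likelihood test, with Benjamini-Hochberg adjustment over all genes kept. DESeq2 1.42.0 and, on log2(TPM + 1), limma 3.58.1 were alternatives. Within-mouse ratios are differences of log2 CPM with a prior count of 2. Relative to TMM, log2 fold changes shifted by -0.33 with library totals, -0.15 with upper-quartile factors and -0.29 on log2(TPM + 1) (medians).

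The test was tried on simulated counts before use. Replicates differed beyond counting noise (chi-square per gene 13.7 to 37.1, minimum 20 counts) and were kept as separate samples. The libraries of a number come from the same mouse, per the labels, and the main fit did not use that pairing. Same-mouse deviations from the group means correlated at 0.152, 0.0409 and 0.167 over genes. Between different mice these correlations were -0.145 to 0.00587. Precision is limited by the 3 mice per group.

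The 10 genes and the gene lists were chosen with earlier results of these data known, and lists exclude the 10. Castor1 and Castor2 were matched through their older symbols. Irs1, Insr, Rictor, Trib2 and Sesn2 stand in more than 1 list. Besides the 10 genes, Foxo6 and Sesn2, the rule for named genes takes the 4 smallest p of each list and the nearest profile of each gene, leaving out predicted genes; any other list gene in the text is an example picked with its value known. Positions come from GENCODE M21 (GRCm38) and are 1-based. Protein sequences were not used here.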

Additional observations from a re-analysis of the deposited data

How the results depend on the processing

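With the mouse as a replicate block, the numbers of genes called were 4212 higher and 4351 lower against 3859 and 3917 without it. The median log2 fold change of the 10 genes was -0.44 in both fits. No call changed for Foxo6, Sesn2 or the 4 genes with the smallest p of each list, and other named genes were not followed. Counts of called list genes were the same or larger with the block. For instance, 16 against 13 mTORC1 genes were lower, and 13 against 11 FoxO targets were higher. Library totals alone gave 2168 higher and 6655 lower genes, and a median of -0.76 over the 10. In list order (PI3K, regulators, targets, mTORC1, Txnip partners) the lower calls then numbered 14, 10, 23, 32 and 10 in place of 8, 3, 14, 13 and 6, and the higher calls 7 in place of 15 regulators and 6 in place of 11 mTORC1 genes. On log2(TPM + 1), 1904 genes were higher, the median of the 10 was -0.75, and higher calls numbered 4 (PI3K), 8 (regulators), 6 (mTORC1) and 4 (Txnip partners), with 5 regulators lower. Upper-quartile factors gave 5 regulators and 20 mTORC1 genes as lower and a median of -0.59. Library totals and upper-quartile factors change the scale between libraries. In these libraries they moved log2 fold changes downward relative to TMM (medians -0.33 and -0.15). Which scaling is nearer the truth was not tested. Leaving out a library in turn gave 3153 to 3597 higher and 3147 to 3600 lower genes and a median of the 10 of -0.51 to -0.39. Over all alternatives, log2 fold changes stayed between -3.13 and -2.73 for Sesn1, -2.78 and -2.39 for Txnip, -2.33 and -1.83 for Pik3ip1 and -3.14 and -2.72 for Glul. No alternative was left out.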
